A study of Mus musculus with 8 samples.

Results

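The Shank, Homer and Dlgap genes encode scaffold proteins of the postsynaptic density of excitatory synapses. All rows of the gene count table whose symbol was Shank1, Shank2, Shank3, Homer1, Homer2, Homer3, Dlgap1, Dlgap2, Dlgap3 or Dlgap4 were taken, which gave 10 of 54532 genes. All 10 passed the filter on low counts that left 17195 genes for testing. Bulk RNA-seq of cortex had been done in 4 PS19 and 4 Adrb1-A187V;PS19 mice, 1 library per mouse. The mice were 8 mo old and of the C57BL/6 strain per the labels, and the study's methods give males, unless otherwise noted, and littermate controls. Both genotypes carried the PS19 transgene, a human tau with the P301S mutation under the mouse prion protein promoter. The Adrb1-A187V;PS19 mice (label Adrb1+/m;PS19) also carried 1 copy of Adrb1, the gene of the beta-1 adrenergic receptor, with the A187V mutation. The comparison asked how that receptor mutation changed gene expression in tau transgenic cortex. No mice without the transgene were analysed here, so no value below describes an effect of tau itself.

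In the postsynaptic density, Dlgap proteins (also called SAPAP or GKAP) bind the scaffold PSD-95, which holds NMDA-type glutamate receptors. Shank proteins bind Dlgap proteins from the other side and reach the actin cytoskeleton. Through Homer, they reach metabotropic glutamate receptors and inositol trisphosphate receptors. Homer1 also has a short form, induced by neuronal activity, that lacks the coiled coil by which the long forms join to each other.

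Library totals ranged from 14653222 to 21223754 counts, and the TMM scaling factors from 0.990 to 1.01. The cortical marker Slc17a7, the vesicular glutamate transporter of cortical excitatory neurons, was at 909 to 1259 CPM (counts scaled to a common library size with the TMM factors). Its fitted mean was lower in Adrb1-A187V;PS19 mice (log2 fold change -0.19, unadjusted p = 0.022 by edgeR). Of 6 cerebellar markers, 5 did not pass the filter on low counts. The 11 markers of striatal projection neurons summed to between 1091 and 2418 CPM, a spread that was present in both genotypes.

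The 10 transcripts differed widely in level. Levels of different genes were compared as CPM per kilobase of gene length, averaged over the 8 mice. That length covers all annotated exon bases of a gene, from 3440 in Homer3 to 17890 in Dlgap1, so the order depends on it. In mean CPM without length, Shank1 (608) and Dlgap1 (567) stood above Dlgap3 (484). Dlgap3, a Dlgap family member strongly expressed in striatum as well as cortex, was highest at 107 CPM per kilobase. Shank1, a Shank protein of mature spines, followed at 57.8, and Shank3, the family member linked to Phelan-McDermid syndrome, at 37.1 CPM per kilobase. Dlgap4 was at 34.7, Dlgap1 at 31.7, Homer1 at 25.0 and Shank2 at 20.2 CPM per kilobase. The lowest were Dlgap2 at 13.9, Homer2 at 5.19 and Homer3 at 1.93 CPM per kilobase. The ranges over the 8 mice overlapped for 4 neighbouring pairs, which were Shank3 and Dlgap4, Dlgap4 and Dlgap1, Dlgap1 and Homer1, and Homer1 and Shank2. The ranges of the other 5 neighbouring pairs did not overlap. Compared within each mouse, Dlgap1 was above Homer1 and Homer1 above Shank2 in all 8 mice. Dlgap4 was above Dlgap1 in 7 mice and Shank3 above Dlgap4 in 5. Homer3 rested on 89 to 146 counts per mouse, against 8937 to 13595 counts for Shank1.

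**Figure D1:**
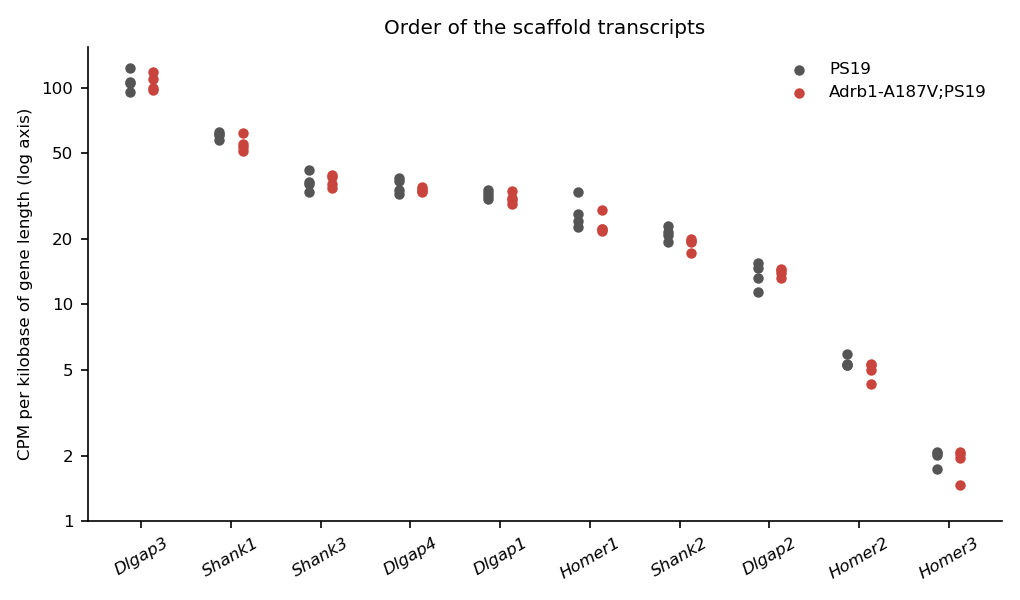
Level of each scaffold transcript in CPM per kilobase of gene length (log axis), 1 point per mouse, with PS19 mice in grey and Adrb1-A187V;PS19 mice in red. Dlgap3 stood above Shank1 in all 8 mice, and Homer3 was the lowest at a mean of 1.93.

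Within the Shank family, Shank1 and Shank2 had lower fitted means in Adrb1-A187V;PS19 mice and Shank3 had nearly equal ones. The fitted change was -8.59% for Shank1 and -10.03% for Shank2, and neither passed the test once adjusted over all genes. In bulk tissue, fewer cells of a type and less RNA per cell cannot be told apart. The names Shank1 and Shank2 both stand in the study's heat map of genes curated from those it called different in these same libraries, so their direction is not independent evidence.

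Shank1 (chromosome 7, 44310253-44360572, plus strand, GRCm38) was at 602, 659.3, 642 and 638 CPM in PS19 mice m677, m668, m665 and m659, and at 536, 649, 560.2 and 577 CPM in Adrb1-A187V;PS19 mice m671, m661, m660 and m658. Of the Adrb1-A187V;PS19 mice, 3 lay below all PS19 mice, and m661 lay among them. The log2 fold change was -0.13 (SE 0.058, 95% interval -0.26 to -0.0039), with an unadjusted p of 0.044 and an adjusted p of 0.9996 by edgeR.

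Shank2 (chromosome 7, 144001928-144424494, plus strand), a Shank protein present early in synapse formation, was at 225, 232, 209.9 and 248 CPM in the PS19 mice and at 186.9, 209, 210.4 and 216 CPM in the Adrb1-A187V;PS19 mice, in the same order. Mouse m671 was the lowest of the 8, and the genotypes overlapped in the range held by m665, m660 and m658. The log2 fold change was -0.15 (SE 0.062, 95% interval -0.29 to -0.02), with an unadjusted p of 0.028 by edgeR. Both calls depended on single mice. By edgeR, Shank1 kept an unadjusted p under 0.05 in 2 of 8 fits that each left out a mouse (without m677 or m661), and Shank2 in 5 of 8, being lost without m668 (unadjusted p = 0.052), m659 (unadjusted p = 0.103) or m671 (unadjusted p = 0.089). By an exact two-sided permutation test of CPM, p was 0.114 for Shank1 and 0.086 for Shank2, where 4 against 4 mice cannot go below 0.0286.

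Shank3 (chromosome 15, 89499623-89560261, plus strand) was at 305, 385, 332 and 336 CPM in PS19 mice m677, m668, m665 and m659, and at 357, 317, 329.9 and 362 CPM in Adrb1-A187V;PS19 mice m671, m661, m660 and m658. The PS19 mice held both the lowest and the highest value. The log2 fold change was 0.01 (95% interval -0.14 to 0.16, unadjusted p = 0.911 by edgeR), which in percent ran from -9.23% to 11.4%. As a share of the summed Shank level per kilobase, Shank3 made up 31.1% ± 1.47 in PS19 and 33.4% ± 2.71 in Adrb1-A187V;PS19 mice (SD, n = 4 each, exact permutation p = 0.257). Shank1 made up 51.0% ± 1.123 and 49.5% ± 2.66 of that sum.

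**Figure D2:**
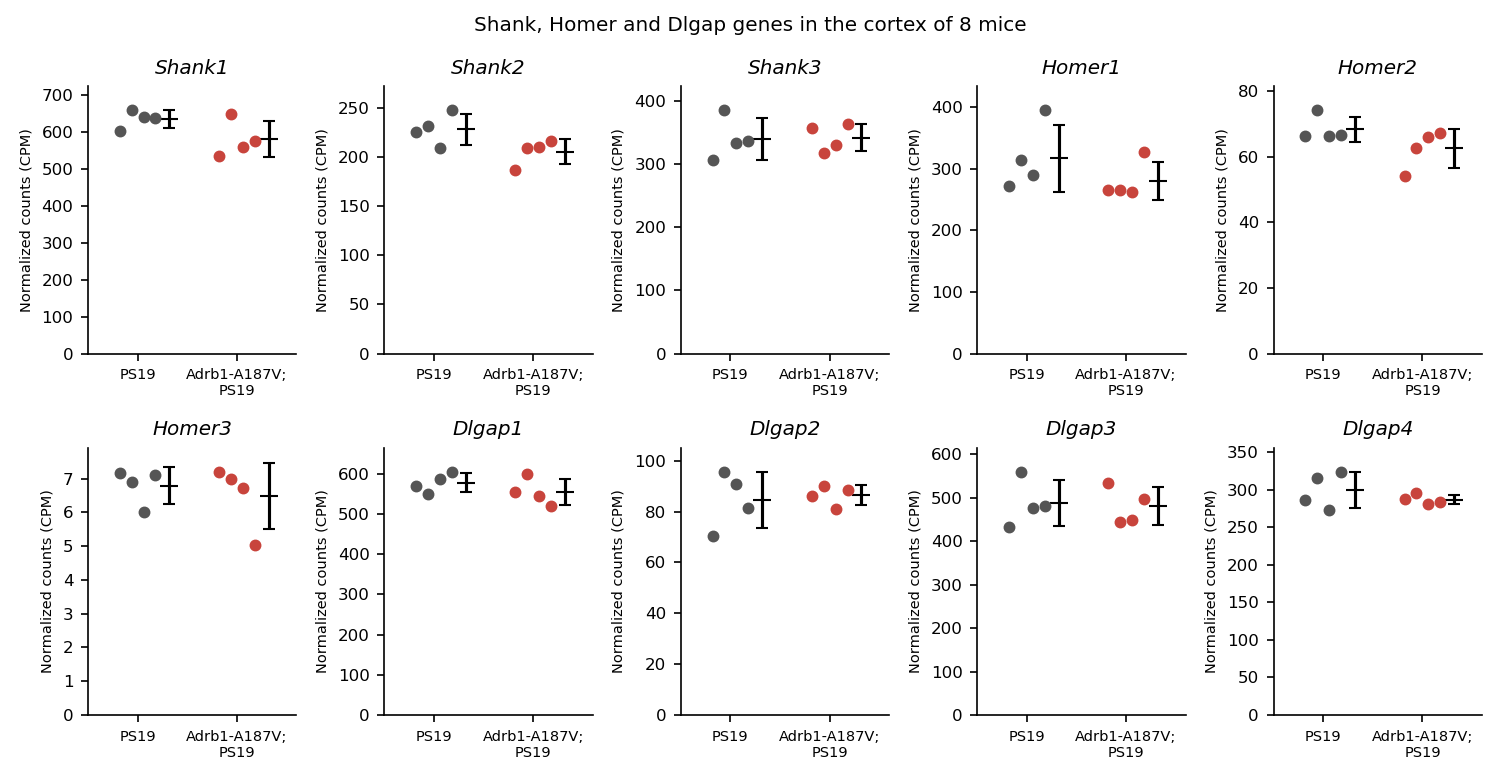
CPM of each of the 10 scaffold genes in every mouse (y axes start at 0), PS19 in grey and Adrb1-A187V;PS19 in red, with the mean and SD of each genotype in black. The genotypes overlapped for all 10 genes, and Homer1 was spread most, from 262 to 395 CPM.

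All 3 Homer transcripts had lower fitted means in Adrb1-A187V;PS19 mice, and none passed the test. Homer1 (chromosome 13, 93299635-93405129, plus strand) was at 272, 314, 289.5 and 395 CPM in the PS19 mice, and at 266, 266, 262 and 327 CPM in the Adrb1-A187V;PS19 mice, in the order above. The Adrb1-A187V;PS19 mice m671, m661 and m660 lay close together and below all PS19 mice, and m658 lay above 3 of the PS19 mice. The log2 fold change was -0.18 (SE 0.104, 95% interval -0.40 to 0.04), the largest in size of the 10, with an unadjusted p of 0.105 by edgeR. Left out in turn, m677 (unadjusted p = 0.033) and m658 (unadjusted p = 0.023) each brought it under 0.05 by edgeR. The value rested on PS19 mouse m659, the highest in Homer1, and without it the log2 fold change was -0.06 (unadjusted p = 0.488), smaller in size than those of Shank1, Shank2 and Homer2 in the same fit. For Homer1, 12 transcripts are annotated in GENCODE M21, and counts per gene do not separate the short form from the long ones.

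The sequence just before 1 of the 2 RefSeq starts of Homer1 is shown because Homer1 varied most among mice and is the member known for induction by neuronal activity. It covers chr13:93303507-93303756 on the plus strand of GRCm38.p6 and holds no annotated exon base. This start, at 93303757, lies inside the gene span given above, and it was shown rather than the one at 93308034 because it was the one with matches to the motif. Capitals mark TGACG, the core of the cAMP response element.
Homer1: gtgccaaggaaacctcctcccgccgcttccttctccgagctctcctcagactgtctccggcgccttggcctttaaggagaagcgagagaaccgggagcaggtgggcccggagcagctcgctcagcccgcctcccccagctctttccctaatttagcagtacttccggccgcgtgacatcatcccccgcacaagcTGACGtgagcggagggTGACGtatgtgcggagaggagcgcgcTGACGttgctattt
The motif stood 56, 40 and 14 bases before the start, on the plus strand, and the minus strand held no match. Over both strands, 17.8% of 32851 RefSeq promoter entries of the same length held 1 or more matches and 0.688% held 3 or more. The full site TGACGTCA was not in this window, and 1.55% of the entries held it. Of the members, 7 had entries in the table, 10 in all, and the Homer1 entry shown was the 1 with a match, while the second Homer1 entry had 0. These matches describe letters, and binding there was not measured.

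Homer2, a long-form family member, ranged from 66.3 to 74.2 CPM in PS19 mice and from 54.2 to 67.2 CPM in Adrb1-A187V;PS19 mice, with a log2 fold change of -0.13 (SE 0.071, unadjusted p = 0.097), which was -0.07 without m671 (unadjusted p = 0.307). In 3 of the Adrb1-A187V;PS19 mice it was below all PS19 mice, and m658 was within their range. Homer3, which is abundant in Purkinje cells of the cerebellum, was at 5.99 to 7.17 CPM in PS19 and 5.04 to 7.20 CPM in Adrb1-A187V;PS19 mice. Its 95% interval, from -23.0% to 19.1%, was the widest of the 10. Homer3 shares 874 exon bases with Ddx49 on the other strand, which had 216 to 397 counts, and whether counting used strand was not given in the sources used here, so the Homer3 level is uncertain. Homer1 made up 77.9% ± 2.68 of the summed Homer level per kilobase in PS19 and 77.3% ± 2.13 in Adrb1-A187V;PS19 mice.

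The 4 Dlgap transcripts had log2 fold changes between -0.06 and 0.03, and none passed the test. Dlgap1, a Dlgap protein of cortical synapses, was at 578 ± 24.0 CPM in PS19 and 555 ± 33.4 CPM in Adrb1-A187V;PS19 mice (SD, n = 4 each), a log2 fold change of -0.06 with a 95% interval of -0.17 to 0.05. Dlgap2 ranged from 70.5 to 95.6 CPM in PS19 and from 81.1 to 90.0 CPM in Adrb1-A187V;PS19 mice, with a log2 fold change of 0.03 (95% interval -0.15 to 0.21). Dlgap4 was at 300 ± 23.7 and 287 ± 6.23 CPM, with a log2 fold change of -0.06 (95% interval -0.19 to 0.06). In all 3, the ranges of the genotypes overlapped.

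Dlgap3 (chromosome 4, 127169204-127237022, plus strand) was at 432, 559.7, 476 and 482 CPM in PS19 mice m677, m668, m665 and m659, and at 535, 443, 449.8 and 498 CPM in Adrb1-A187V;PS19 mice m671, m661, m660 and m658. The highest and the lowest of these mice were both PS19. The log2 fold change was -0.02 (95% interval -0.19 to 0.15), with an unadjusted p of 0.820 by edgeR. Dlgap3 made up 56.8% ± 2.02 in PS19 and 57.3% ± 2.59 in Adrb1-A187V;PS19 mice of the summed Dlgap level per kilobase. Of the summed Dlgap CPM without length, it made up 33.6% and 34.1%, below Dlgap1 at 39.9% and 39.4%. Over the 10 family shares, exact permutation p ranged from 0.257 to 0.8286.

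Over all members, 8 of 10 had a lower and 2 a higher fitted mean in Adrb1-A187V;PS19 mice. Their log2 fold changes had a median of -0.06, against 49.8% lower and a median near 0 (0.00046) over all genes tested. Among the 4643 genes with a mean of 50 CPM or more, 55.6% were lower. The 2 members with an unadjusted p under 0.05, Shank1 and Shank2, were both lower, and 2.8% of all genes tested passed that threshold, 1.37% in the lower and 1.42% in the higher direction. No gene of the 17195 had an adjusted p under 0.05 by edgeR, where 481 had an unadjusted p under 0.05. DESeq2, run on the 33614 genes with 1 or more counts, gave 555 genes with an unadjusted p under 0.05. On the 17195 genes, limma-voom gave 492. Both had none past the adjusted threshold, and both had Shank1 and Shank2 among the genes with an unadjusted p under 0.05. The CPM ranges of the genotypes were apart in 2.02% of genes and in 0 of the 10 members.

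Of 34 partners of these scaffolds, 22 had a lower and 12 a higher fitted mean. Their median was -0.03 on the log2 scale, and none had an unadjusted p under 0.05. Dlg4, which encodes PSD-95, had a log2 fold change of -0.02. Grin1, the obligatory NMDA receptor subunit, was at -0.04 and Camk2a, a synaptic kinase, at -0.05. Grm5, the metabotropic receptor bound by Homer, was at 0.13 (SE 0.069, unadjusted p = 0.079).

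**Figure D3:**
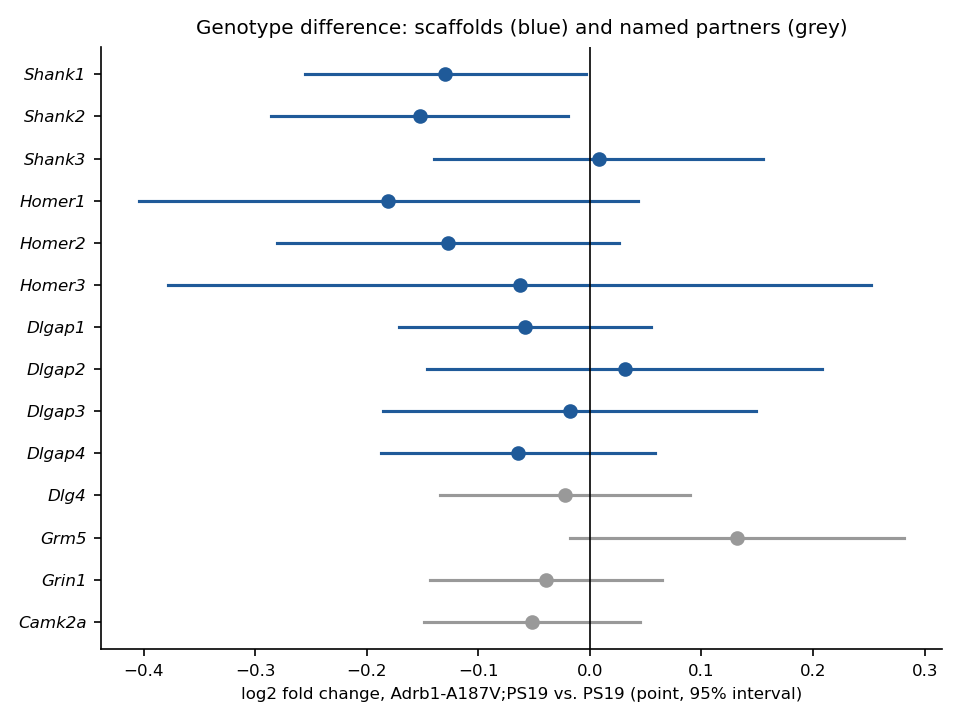
Log2 fold change of Adrb1-A187V;PS19 vs. PS19 mice with its 95% interval from edgeR, for the 10 scaffold genes (blue) and 4 named partners (grey). Only the intervals of Shank1 and Shank2 did not reach 0.

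Some markers of other cells differed between genotypes at the unadjusted threshold. Of 8 markers of basal forebrain cholinergic neurons, 8 had a higher level with an unadjusted p under 0.05, and their sum was 18.2 to 36.7 CPM in PS19 and 38.4 to 54.8 CPM in Adrb1-A187V;PS19 mice. Of 10 cortical excitatory markers, 8 had a lower fitted mean, 3 of them with an unadjusted p under 0.05 by edgeR. These 3 were Slc17a7 (log2 fold change -0.19), Tbr1 (-0.13) and Neurod6 (-0.27). Another 1, Cux1, was higher at that threshold (log2 fold change 0.15, unadjusted p = 0.015 by edgeR). The sum of the 10 markers was 1838 to 2080.3 CPM in PS19 against 1705 to 1909 CPM in Adrb1-A187V;PS19 mice (exact permutation p = 0.086). Of 8 interneuron markers, Gad2 (0.24) and Slc32a1 (0.18) had higher and Vip (-0.19) a lower level on the log2 scale at an unadjusted p under 0.05. A fit with the log2 of the excitatory sum in the model was added after values were seen. In it, Shank1 had a log2 fold change of -0.04 (SE 0.072, unadjusted p = 0.561) and Shank2 of -0.12 (SE 0.087, unadjusted p = 0.187) by edgeR. Without the sum, the SE was 0.058 and 0.062. The slope on the sum was 0.67 for Shank1 (unadjusted p = 0.102) and 0.22 for Shank2 (unadjusted p = 0.632) by edgeR. Whether excitatory content accounts for either Shank difference was not tested. The part of the cholinergic and interneuron markers in the Shank and Homer values was not tested.

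Among mice, the members did not vary alike. The SD of log2 CPM over the 8 mice was largest for Homer1 (0.21) and smallest for Dlgap1 (0.076). Its median over the members was 0.12, against 0.15 over all genes tested and 0.081 over genes with a mean of 50 CPM or more. The PS19 mouse m668 was above the 8-mouse mean in 9 of 10 members and was the highest of all mice in 5. Mouse m659 was the highest in 4, Homer1 among them, and m660 was above the 8-mouse mean in 2. The genes nearest to Homer1 across the 8 mice were Fam189a1, Kctd6, Tm9sf2, D630045J12Rik and Camsap3. Their root mean square difference of standardized log2 CPM was 0.29 to 0.37, against a median of 1.41 over protein-coding genes. They were picked for this small difference, so the contrast with the median is no evidence of a shared pattern. Standardizing also hides size, as their SD of log2 CPM ran from 0.043 (Tm9sf2) to 0.16 (D630045J12Rik).

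Shank3 and Dlgap3 were highest and lowest in the same mice as the striatal markers. The 11 striatal markers, among them Drd1, Drd2, Adora2a, Penk and Ppp1r1b, summed to 1091, 2156, 1543 and 1168 CPM in m677, m668, m665 and m659, and to 2418, 1129, 1645 and 2023 CPM in m671, m661, m660 and m658. The 3 mice highest in this sum, m671, m668 and m658, were also the 3 highest in Shank3 and in Dlgap3, and the 2 lowest, m677 and m661, were the 2 lowest in both. No other member shared all 5 of these mice. In the 3 mice between, the order was the opposite, with m660 highest in the sum and lowest in both genes and m659 lowest in the sum and highest in both. The sum overlapped between genotypes (exact permutation p = 0.429), although all 11 markers had a higher fitted mean in Adrb1-A187V;PS19 mice, 1 of them, Tac1, with an unadjusted p under 0.05.

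In edgeR fits with genotype and the log2 striatal sum, added after values were seen, Dlgap3 had a slope of 0.28 per doubling of the sum (SE 0.062, unadjusted p = 0.00061, adjusted p = 0.085). Shank3 had a slope of 0.23 (SE 0.061, unadjusted p = 0.0025, adjusted p = 0.190). These were 2 of 10 members with a positive slope at an unadjusted p under 0.05, against 4.59% of genes, and an adjusted p under 0.05 was found in 0.477% of genes and in 0 members. Shank1 and Shank2 had slopes of -0.07 (unadjusted p = 0.319 and 0.348 by edgeR), Homer1 of 0.02 (unadjusted p = 0.882) and Dlgap1 of -0.11 (unadjusted p = 0.086). With the sum in the model, the log2 fold change for genotype was -0.11 for Shank1 (unadjusted p = 0.080 by edgeR) and -0.13 for Shank2 (unadjusted p = 0.057).

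**Figure D4:**
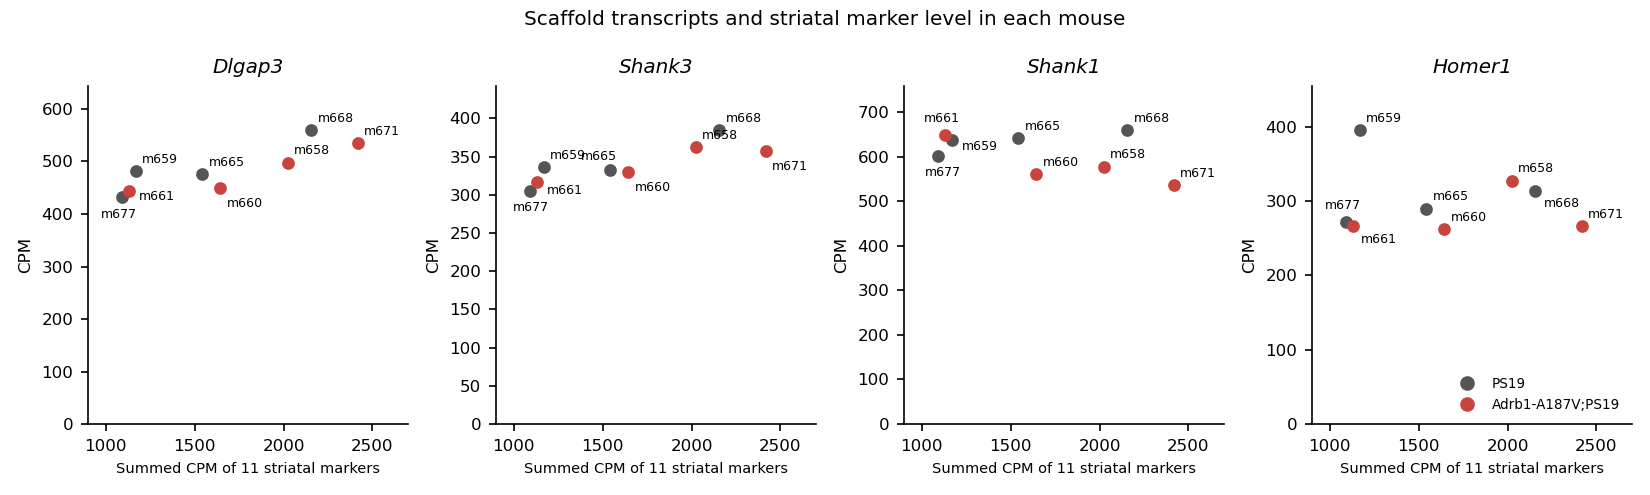
CPM of Dlgap3, Shank3, Shank1 and Homer1 in each mouse (y axes from 0) against the summed CPM of 11 striatal markers, with mice named and genotypes in grey (PS19) and red (Adrb1-A187V;PS19). Dlgap3 and Shank3 were highest in m668, m671 and m658, the mice with the highest sums, and Shank1 and Homer1 had no such order.

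No relation of Homer1 to the summed level of 10 other immediate early genes was detected. Counts per gene pool the short form of Homer1 with the long ones, so a relation of the short form alone could be missed. All 10 genes had a lower fitted mean in Adrb1-A187V;PS19 mice, against 49.8% of all genes tested. Their median log2 fold change was -0.15, and none had an unadjusted p under 0.05 by edgeR. The 10 genes were measured in the same mice, so their shared direction is not 10 independent observations. Their sum ranged from 515 to 1079 CPM in PS19 and from 579 to 1047 CPM in Adrb1-A187V;PS19 mice (exact permutation p = 0.771). Mouse m659, the highest in Homer1, was at 649 CPM. In the same kind of fit, the slope on this sum was -0.07 for Homer1 (SE 0.137, unadjusted p = 0.632 by edgeR), 0.23 for Dlgap3 (unadjusted p = 0.011) and 0.22 for Dlgap2 (unadjusted p = 0.028). Mice m668 and m671 were high in this sum and m677 was lowest, as in the striatal sum. Other mice differed between the sums. Mouse m665 was highest in the immediate early sum (1079 CPM) but at 1543 CPM in the striatal sum, and m658 was at 628 and 2023 CPM. The immediate early and striatal sums were not fitted together, so the slopes of Dlgap3 on them were not separated. On the immediate early sum, an unadjusted p under 0.05 with a positive slope was found in 4.38% of genes, and an adjusted p under 0.05 in 0.215% of genes and in 0 members. On the excitatory sum, Dlgap4 was the 1 member with such a slope, 0.82 (SE 0.346, unadjusted p = 0.035 by edgeR), against 2.13% of genes.

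Exons of 6 members overlap an annotated gene on the other strand. Besides Homer3, the shared stretches were 339 bases in Shank1, 271 in Shank3, 525 in Homer2, 92 in Dlgap1 and 24 in Dlgap4, and the overlapping genes (1700008O03Rik, Gm15609, Gm44570, AC079441.1 and 4930405A21Rik, in the same order) had at most 59 counts in any mouse. Shank2, Homer1, Dlgap2 and Dlgap3 share no exon base with another gene.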

How the data were processed

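Total RNA of mouse cortex was sequenced in pairs of reads. The authors aligned reads to GRCm38 with HISAT2 (version 2.0.5) and counted them per gene with featureCounts (version 1.5.0-p3), and the deposited table holds raw counts per gene for 8 mice. The table also gives gene lengths in bases, another deposited unit, used for levels per kilobase. The annotation release and the settings for strand and multiply mapped reads were not given in the sources used here. Exons and coordinates of all 10 genes equalled GENCODE M21. Promoter sequence came from RefSeq.

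Counts were filtered by edgeR's filterByExpr, scaled by TMM and tested with edgeR (version 4.0.16, R 4.3.3) by the quasi-likelihood F test of Adrb1-A187V;PS19 vs. PS19, with Benjamini-Hochberg adjustment over 17195 genes. CPM were computed from the scaled counts. Alternatives used DESeq2 (version 1.42.0), limma-voom (version 3.58.1), a surrogate variable (sva 3.50.0), other filters and each mouse left out. Scripts were tested on simulated data. The members, partners and marker lists were chosen with earlier results of these data known. Named genes were all members, any partner with an unadjusted p under 0.05 and others by role (Dlg4, Grm5, Grin1 and Camk2a, with 1 more not reported here), the 5 protein-coding genes nearest to the member with the largest SD (Homer1), and genes overlapping a member. Marker genes named with values were chosen after these were seen. The study's methods state that controls were littermates, but the labels tie no mice together. The p-values set the genotype difference against the spread between these mice, taken as independent, which could not be checked.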

Additional observations from a re-analysis of the deposited data

Results flagged for a closer look

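In 40 groups of 4 mice (CPM and family share of each member in each genotype), 3 had 1 mouse far from the others, measured as the gap to the nearest mouse over the whole range of the group. Chance alone flags about 1 in 20 groups. In Adrb1-A187V;PS19 mice, Homer1 was at 327 CPM in m658 against 262 to 266 CPM in the others (gap over range 0.946). In PS19 mice, Homer2 was at 74.2 CPM in m668 against 66.3 to 66.8 CPM (0.940). As a share of the summed Homer level per kilobase, Homer2 was at 13.1% in PS19 mouse m659 against 16.9% to 17.5% (0.865), and that mouse was also the highest in Homer1.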

How the results depend on the processing

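No paired analysis was possible because each mouse has its own number and the labels give no litter. Leaving out 1 mouse at a time, 0 to 3 members and 0 to 1 partners had an unadjusted p under 0.05, 7 to 10 members had a lower fitted mean, and the log2 fold change ranged from -0.0383 to 0.0727 for Shank3, -0.0452 to 0.0937 for Dlgap2, -0.0729 to 0.0548 for Dlgap3, -0.121 to 0.0394 for Homer3, -0.264 to -0.0585 for Homer1 and -0.163 to -0.0657 for Homer2. The members' median ranged from -0.113 (without m665) to -0.0382 (without m659). The difference in family share ranged from -1.63 to 0.592 percentage points for Homer1, -0.778 to 0.710 for Homer2, -1.16 to 0.0402 for Dlgap1 and -0.383 to 1.56 for Dlgap3. With no filter beyond 1 count, 1366 genes in place of 481 had an unadjusted p under 0.05, among them Homer1 (unadjusted p = 0.0023 by edgeR) and 1 partner, Grm5. That fit covered 33614 genes and behaved unlike the main one. Its smallest adjusted p over all genes was 3.1e-82 by edgeR, against 0.9996 in the main fit. Without m661 or m658, the smallest adjusted p over all genes was 0.0017 or 0.0015 by edgeR.

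With a marker sum as covariate, chosen after seeing the data, 0 members were under 0.05 with the striatal and 0 with the excitatory sum. With the striatal sum, the log2 fold change was -0.0520 for Shank3 and -0.0055 for Dlgap2. With the excitatory sum, 4 members had a lower fitted mean, the median was 0.0272, and the values were 0.0492 for Homer3, 0.0085 for Dlgap1, 0.0849 for Dlgap3 and 0.0459 for Dlgap4. With the immediate early sum, Dlgap3 was at 0.0131. The causes were not tested. The median SE of the members' log2 fold changes was 0.07, so differences that are small beside it could be missed with 4 mice per genotype.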
